A study of Mus musculus with 64 samples.

Results

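Risperidone was compared with saline in the nucleus accumbens (NAc), the ventral part of the striatum, in 12 of the 64 RNA-seq libraries of a study of psychotropic drugs in mice. The members were chosen by their labels as the 4 NAc libraries of risperidone (RIS) and the 8 NAc libraries of saline (SAL), of which 4 belong to sample set I and 4 to sample set II. RIS belongs to set I, so the 4 libraries of saline set I served as a second control. The mice were adult male C57BL/6N mice 8 to 10 weeks old, given a single intraperitoneal injection and decapitated 2 h later. RIS was given at 0.5 mg/kg. Per the methods of the study, the vehicle of RIS and haloperidol (HAL) was saline with a drop of HCl, and HAL was given at 1 mg/kg. Those methods do not say whether the saline controls received HCl, so a part of the vehicle in these differences was not tested. The labels number the replicates but do not say that each library was a separate mouse, so p-values measure the spread between these samples.

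Risperidone is an atypical antipsychotic that blocks dopamine D2 and serotonin 5-HT2A receptors and also binds adrenergic and histamine receptors. The NAc consists mostly of medium spiny neurons, whose indirect-pathway class carries D2 receptors and whose direct-pathway class carries D1 receptors. Block of D2 receptors relieves an inhibition of adenylyl cyclase, and antipsychotics are known to induce immediate early genes such as Fos in the striatum. Many drugs and stressors also raise corticosterone in rodents, which acts on transcription through the glucocorticoid receptor.

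The values were FPKM, the fragment count divided by transcript length and library size, summed over the transcripts of each gene name. Depth, estimated from coverage over FPKM, was 2.03 to 3.26 gigabases per library and 2.39 to 2.74 in RIS. The RIS libraries list 86558 to 87539 transcripts above 0, those of saline set I 85397 to 87827, and those of saline set II 109231 to 110063. The 2 saline sets differed in 1507 of 15053 genes (10%), so results are given against all 8 SAL libraries and against set I alone. The tissue carried its defining genes: Drd2 was at 12 to 18.3 FPKM, Drd1 at 27.4 to 36.8 and Penk at 200 to 266 in the 12 libraries. Slc17a7, a gene of cortical projection neurons, was also present, at 29.3 to 48.9 in RIS and 15.4 to 53.6 in SAL.

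Genes of the glucocorticoid and immediate early gene lists were among the rises after RIS. Against 8 SAL libraries, 68 of 15053 genes passed an adjusted p under 0.05 (limma, 0.452% of the genes tested), with 49 higher (0.326%) and 19 lower (0.126%). The rises went from 1.30- to 3.24-fold. Without RIS replicate 1, 2, 3 or 4 the count was 25, 11, 15 or 30, and without any 1 SAL library 47 to 85, so each RIS library moved it. In 67 of the 68 genes the RIS libraries did not overlap any SAL library, against 2.18% of all genes tested (1.38% above and 0.797% under every SAL library), and Bhlhe40 was the exception. The 68 were chosen by a test on these same libraries, so this separation follows in part from the choice and adds no support. Against set I, which is part of the 8 SAL, all 68 had the same sign, which is likewise no independent check. Only 8 of the 15053 genes (0.0531%) passed against set I, all 8 were higher, and 995 genes had an unadjusted p under 0.05 (6.61%). With the replicate number as a block, which pairs RIS with saline set I, none of the 15053 genes passed (limma) and 1135 had an unadjusted p under 0.05 (7.54%).

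**Figure D1:**
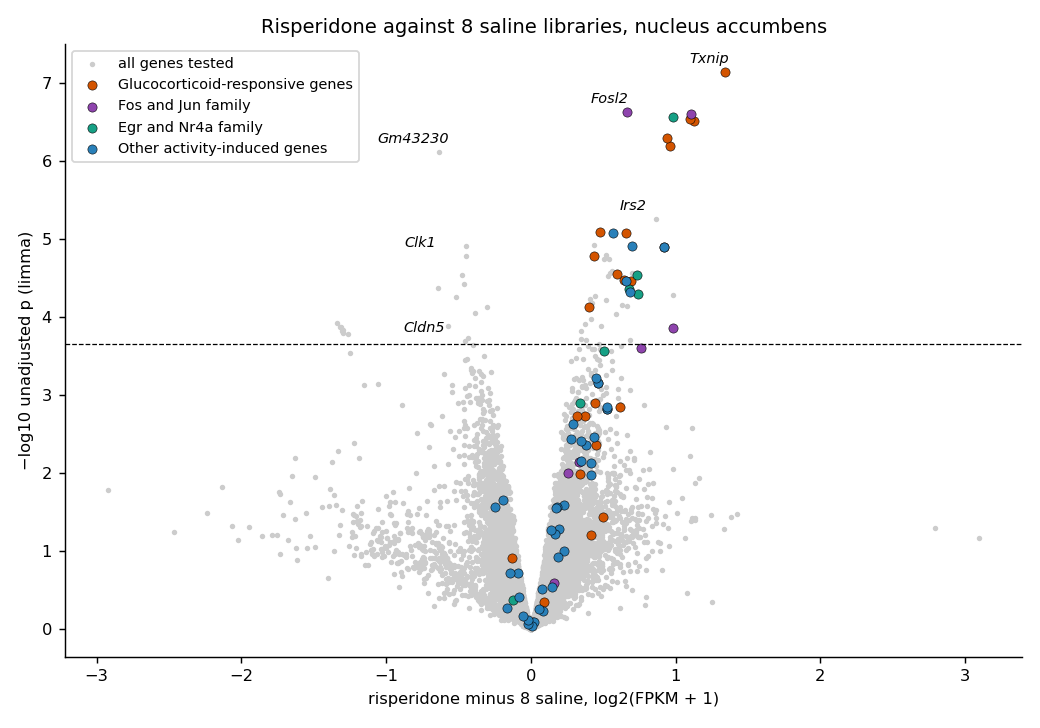
Each point is 1 of 15053 genes, with the difference between risperidone and the mean of 8 saline libraries on the x axis (log2 of FPKM + 1) and the unadjusted limma p on the y axis as its negative log10. Points above the dashed line passed an adjusted p under 0.05, 49 to the right of 0 and 19 to the left, and genes of the glucocorticoid and Fos lists sit among the highest points.

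The 8 genes that passed in both comparisons were Txnip, Ddit4, Fosb, Sgk1, Egr4, Irs2, Klf15 and Fosl2. Their mean FPKM was 1.78 to 3.24 times that of 8 SAL and 1.67 to 3.49 times that of set I. The rule that named them took only genes whose RIS libraries all lay outside the SAL range, so that separation is a description and no permutation p is given for them. With the replicate block the adjusted p against set I was 0.163 to 0.288 (limma). Leaving out any 1 of 8 libraries of that comparison left 0 to 3 genes called, with 0 called without any 1 of the RIS libraries or without set I replicate 1 or 2, 3 without set I replicate 3 and 1 without set I replicate 4.

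**Figure D2:**
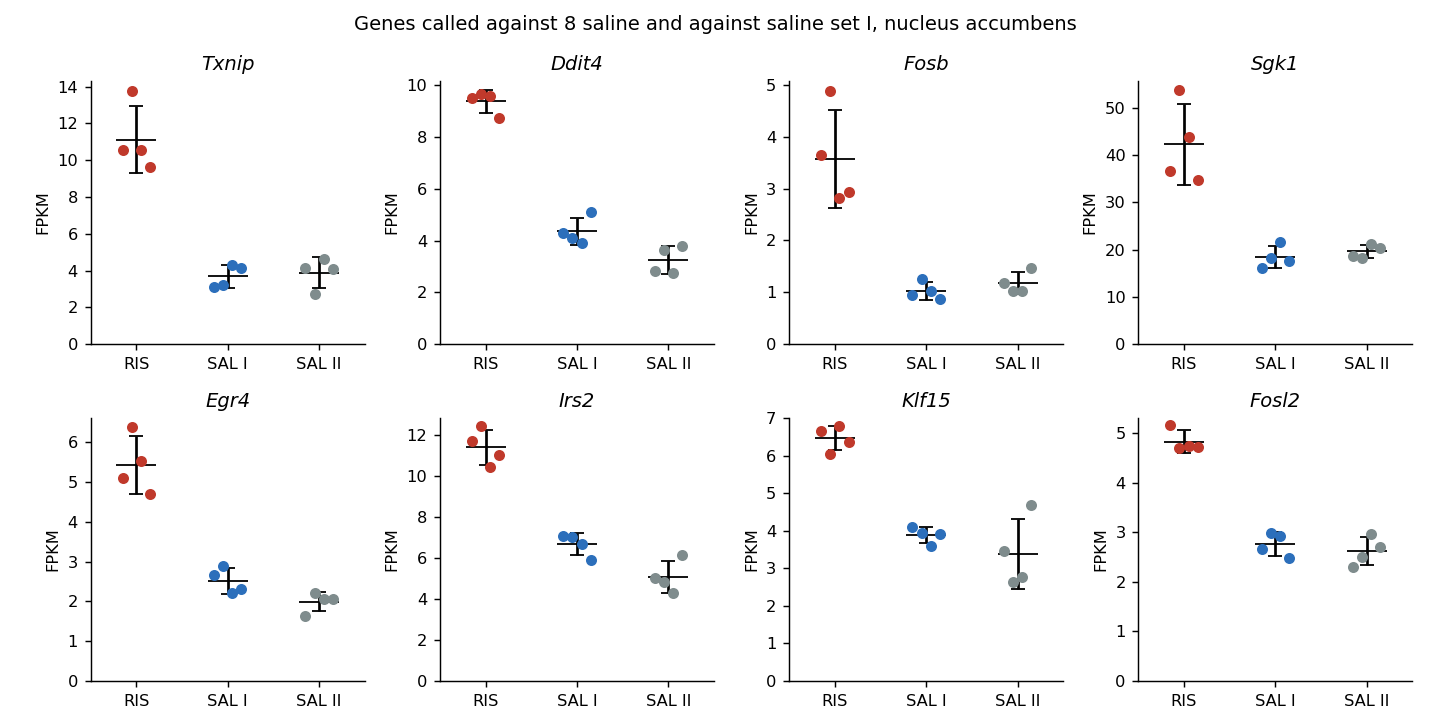
FPKM of the 8 genes on the y axis in each of 4 risperidone (RIS), 4 saline set I (SAL I) and 4 saline set II (SAL II) libraries, with the mean and SD in black. In every panel the 4 risperidone points lie above all 8 saline points.

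Txnip (thioredoxin-interacting protein, an inhibitor of thioredoxin and of glucose uptake; chromosome 3, 96557957 to 96561883, plus strand, GRCm38) was at 10.5, 13.8, 10.6 and 9.66 FPKM in the RIS libraries. The SAL libraries had a lowest value of 2.72, a median of 4.10 and a highest of 4.64, so the groups were far apart. The mean was 11.1 ± 1.80 (SD, n = 4) against 3.79 ± 0.685 (SD, n = 8). The difference was 1.34 on the log2(FPKM + 1) scale (SE 0.12, limma adjusted p = 0.00078) and 1.37 against set I (adjusted p = 0.0138). An antisense gene that overlaps its exons, Gm15441, was at 0.313 to 1.23 FPKM in RIS and 0.0840 to 0.714 in SAL, and reads of the pair cannot be told apart where strand was not used in counting.

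Ddit4 (REDD1, an inhibitor of mTORC1 induced by glucocorticoids and stress; chromosome 10, 59949675 to 59951770, minus strand) was at 9.51, 9.67, 9.60 and 8.73 FPKM after RIS. Its SAL libraries ran from 2.75 through a median of 3.85 to 5.12. Set I, at 4.36 ± 0.531 (SD, n = 4), was above set II, at 3.25 ± 0.534 (SD, n = 4), in the mean. The difference from 8 SAL was 1.13 (SE 0.12, limma adjusted p = 0.00078) and that from set I 0.96 (adjusted p = 0.0138). RIS replicate 4 was the lowest of the RIS libraries, and still above every SAL library.

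Sgk1 (serum and glucocorticoid regulated kinase; chromosome 10, 21882184 to 21999903, plus strand) was the most abundant of the 8. It was at 36.6, 53.7, 43.9 and 34.6 FPKM after RIS, against a SAL range of 16.1 to 21.6 with a median of 18.5. The difference was 1.10 from 8 SAL (SE 0.11, limma adjusted p = 0.00078) and 1.15 from set I (adjusted p = 0.0436).

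Fosb, an AP-1 subunit whose stable splice form accumulates in the striatum on repeated stimulation, had the largest fold. It was at 3.64, 4.87, 2.82 and 2.93 FPKM after RIS, and at 0.863 to 1.47 (median 1.03) after SAL. The mean was 3.24-fold higher, a difference of 1.10 (SE 0.11, limma adjusted p = 0.00078) from 8 SAL and of 1.16 from set I (adjusted p = 0.0431). Fosl2 (Fra-2, another AP-1 subunit) was at 5.17, 4.70, 4.76 and 4.72 after RIS and at 2.31 to 2.99 (median 2.68) after SAL. Its RIS libraries were close together, with an SD of 0.227, and RIS replicate 1 was the highest. The difference was 0.66 (SE 0.07, limma adjusted p = 0.00078) from 8 SAL and 0.63 from set I (adjusted p = 0.0431).

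Egr4, a zinc-finger transcription factor of the Egr family induced by activity, was at 5.09, 6.39, 5.54 and 4.71 FPKM after RIS and at 1.64 to 2.89 (median 2.2) after SAL. The difference was 0.99 from 8 SAL (SE 0.10, limma adjusted p = 0.00078) and 0.87 from set I (adjusted p = 0.0431). Irs2, an adaptor of the insulin receptor and a target of CREB in other tissues, was at 11.7, 12.4, 10.4 and 11 after RIS and at 4.27 to 7.05 (median 6.0) after SAL. The difference was 0.87 (SE 0.12, limma adjusted p = 0.00846) and 0.69 against set I (adjusted p = 0.0436), and Irs2 kept its call against 8 SAL in 11 of 12 fits that left out 1 library. Klf15, a Krüppel-like factor known as a direct target of the glucocorticoid receptor, was not in the lists used here. It was at 6.65, 6.06, 6.80 and 6.38 after RIS and at 2.63 to 4.68 (median 3.76) after SAL, with differences of 0.70 (SE 0.11, limma adjusted p = 0.0155) and 0.61 (adjusted p = 0.0431), and it kept its call against 8 SAL in 8 of 12 such fits.

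Promoter sequence of these 8 genes was read from RefSeq windows (GRCm38.p6) that reach 250 bases before each annotated start, and all 8 genes matched, with 13 windows. A glucocorticoid response element (GRE), searched on both strands as the letters GNACA and TGTNC with 3 bases between them, was in windows of 2 of the 8 genes, Txnip and Sgk1. It was in 0.475% of all 32851 promoter windows and in 3.08% of the 65 windows of the genes called higher. By gene, it was in 2 of the 39 genes called higher that matched (5.13%, against 0.537% of 27025 genes). A gene with more windows has more chances of a match. The Egr element GCGNGGGCG was in 3 of the 8, Fosb, Klf15 and Fosl2, in 10 of those 39 genes (25.6%), and in 6.27% of all genes. By window, it was in 15.4% of the 65, against 5.55% of all windows. The letters TGACGTCA (CRE) were in 3 of the 39 and TGANTCA (AP-1) in 2, against 2.03% and 8.97% of all genes. The CArG box was in 1 of the 39, against 1.81% of all genes. These motifs do not contain each other, and a match is a description of the letters, not a site shown to be used. The upstream sequences are shown, 5′ to 3′ on the strand of the gene, for the 4 genes with a match where the window lies before the annotated first exon, with the match in capitals. Txnip (chr3:96557707-96557956, plus strand) holds GCACACCGTGTCC beginning 172 bases before its start, inside exons of the antisense gene Gm15441. Sgk1 has 6 annotated starts, and the window of the start at 21993890 (chr10:21993640-21993889, plus strand) holds GAACAGAATGTTC beginning 188 bases before it. That match lies 964 bases before the start of transcript ENSMUST00000020145, whose own window (chr10:21994416-21994665) had none of the 5 motifs. Fosb (chr7:19310046-19310295, minus strand) and Klf15 (chr6:90462326-90462575, plus strand) hold the Egr letters GCGGGGGCG beginning 50 and 89 bases before the start.
Txnip: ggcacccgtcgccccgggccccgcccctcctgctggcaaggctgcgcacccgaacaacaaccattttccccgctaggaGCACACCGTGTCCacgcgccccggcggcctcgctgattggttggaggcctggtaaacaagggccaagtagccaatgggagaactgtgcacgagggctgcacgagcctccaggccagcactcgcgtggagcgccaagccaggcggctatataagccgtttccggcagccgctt
Sgk1, start at 21993890: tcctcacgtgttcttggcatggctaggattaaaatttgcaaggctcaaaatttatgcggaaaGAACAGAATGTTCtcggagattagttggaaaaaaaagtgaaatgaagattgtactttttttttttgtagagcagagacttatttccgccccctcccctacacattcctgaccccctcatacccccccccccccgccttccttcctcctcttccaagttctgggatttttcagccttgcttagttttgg
Sgk1, start of ENSMUST00000020145: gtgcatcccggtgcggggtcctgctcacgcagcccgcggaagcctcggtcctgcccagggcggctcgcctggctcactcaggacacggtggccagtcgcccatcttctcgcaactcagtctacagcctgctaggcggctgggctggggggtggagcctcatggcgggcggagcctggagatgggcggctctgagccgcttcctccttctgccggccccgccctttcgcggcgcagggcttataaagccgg
Fosb: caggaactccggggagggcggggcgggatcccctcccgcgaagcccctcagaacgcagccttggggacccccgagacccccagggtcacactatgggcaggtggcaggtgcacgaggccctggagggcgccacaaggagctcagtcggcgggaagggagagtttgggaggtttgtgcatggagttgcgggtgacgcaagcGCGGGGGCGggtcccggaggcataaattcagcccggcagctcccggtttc
Klf15: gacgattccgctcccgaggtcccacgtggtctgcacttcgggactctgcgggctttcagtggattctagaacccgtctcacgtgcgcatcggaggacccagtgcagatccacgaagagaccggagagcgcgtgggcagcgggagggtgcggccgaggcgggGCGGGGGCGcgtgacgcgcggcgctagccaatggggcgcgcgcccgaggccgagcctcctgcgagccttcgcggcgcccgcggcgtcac

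Of the 32 genes of a glucocorticoid-responsive list, 26 passed the filter of a mean FPKM of at least 1, and 13 of these were called higher against 8 SAL and 0 lower, where 0.326% of all genes were called higher. The median difference of the 26 was 0.49 against 0.02 for all genes tested, and 0.41 against -0.01 with set I as control. In 17 of the 26 all RIS libraries lay above all 8 SAL libraries, against 1.38% of all genes tested. This list and the activity lists were chosen with earlier results of these data known, so their counts are a description and add no support. Against set I, 3 of the 26 were called (Txnip, Ddit4 and Sgk1), and 20 had an unadjusted p under 0.05 and a higher level, where 3.51% of all genes did. The count against 8 SAL ran from 6 to 14 when 1 library was left out.

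Nfkbia, the inhibitor that holds NF-kappaB in the cytoplasm, was at 4.85, 5.40, 6.41 and 4.86 FPKM after RIS and at 1.93 to 3.27 (median 2.28) after SAL. The difference was 0.94 (SE 0.10, limma adjusted p = 0.0011) and 0.85 against set I (adjusted p = 0.0692). Arrdc2, an arrestin-domain protein, was at 2.62, 3.17, 2.28 and 2.22 against 0.548 to 1.32 (median 0.850), a 3.06-fold rise (limma adjusted p = 0.00124). Its SAL mean of 0.840 was under the filter, so it was tested only because its RIS mean was 2.57. Neither gene overlapped between the groups.

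Tsc22d3 (GILZ, a classical glucocorticoid target) was at 14.6, 19.9, 18.5 and 15.5 FPKM after RIS and at 8.88 to 13.3 (median 10.3) after SAL, a difference of 0.64 (SE 0.10, limma adjusted p = 0.0166). Fkbp5, a co-chaperone that restrains the glucocorticoid receptor, was at 8.11, 6.76, 8.16 and 7.78 against 4.78 to 5.70 (median 5.22), a difference of 0.48 (SE 0.07, limma adjusted p = 0.00991). Klf9, a Krüppel-like factor, was at 27.6 to 31.3 against 19.2 to 23.4 and so rose 1.37-fold (limma adjusted p = 0.0124). The groups did not overlap in any of these 3 genes. Zbtb16, Cdkn1a, Rasd1, Arrdc3 and Errfi1 were the other members called higher, with differences of 0.69, 0.66, 0.92, 0.59 and 0.40.

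The members that did not pass included Per1, a clock gene with glucocorticoid response elements, at 8.14 to 11.9 FPKM after RIS and 7.07 to 10.3 after SAL (limma adjusted p = 0.254). The metallothioneins Mt1 and Mt2 also overlapped between the groups, and differed by 0.50 and 0.42 from 8 SAL but by 0.19 and 0.17 from set I. The receptors themselves, Nr3c1 (glucocorticoid receptor) and Nr3c2 (mineralocorticoid receptor), differed by -0.13 and 0.02 (limma adjusted p = 0.464 and 0.932).

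**Figure D3:**
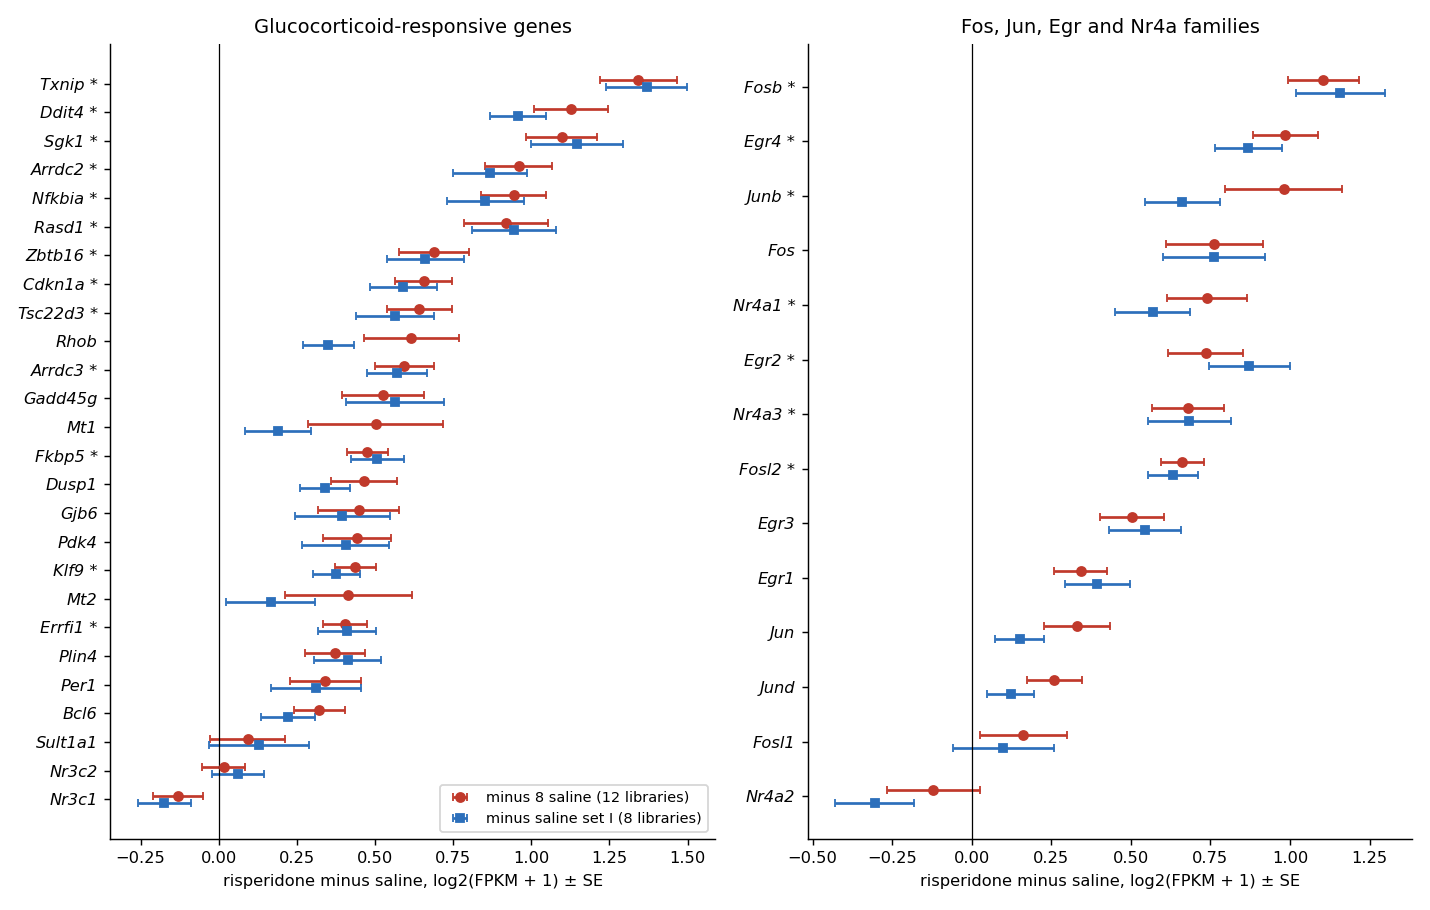
Difference between risperidone and saline on the log2(FPKM + 1) scale (x axis, bars are SE) for the 26 tested genes of the glucocorticoid list (left) and the 14 of the Fos, Jun, Egr and Nr4a families (right), against 8 saline libraries (red circles) and saline set I (blue squares). An asterisk marks an adjusted p under 0.05 against 8 saline, which 13 genes on the left and 7 on the right have.

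Of 14 genes of the Fos, Jun, Egr and Nr4a families, 7 were called higher against 8 SAL, where 0.326% of all genes were, and 3 against set I, where 0.0531% were. All 7 Fos and Jun genes were tested, 3 were called higher against 8 SAL (Fosb, Fosl2 and Junb) and the median difference was 0.66. All 7 Egr and Nr4a genes were tested and 4 were called higher (Egr2, Egr4, Nr4a1 and Nr4a3), with a median of 0.68. No member of either family was called lower. These families were likewise chosen with earlier results of these data known, so the counts are a description. Against set I the calls were Fosb and Fosl2 in the first family and Egr4 in the second. When 1 library was left out, the counts against 8 SAL ran from 2 to 3 and from 1 to 5, and those against set I were 0 in every case.

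Junb was at 11.5, 11.8, 10.3 and 8.23 FPKM after RIS and at 3.10 to 6.75 (median 4.96) after SAL, with no overlap and a difference of 0.98 (SE 0.18, limma adjusted p = 0.0372), and it kept its call in 3 of 12 fits that left out 1 library. Junb also differed between the saline sets (adjusted p = 0.00592, limma), and its difference from set I was 0.66 (adjusted p = 0.18). An antisense gene that overlaps Junb, Prdx2, was more abundant, at 25.7 to 33.7 FPKM in RIS and 21.4 to 38.1 in SAL. As with Txnip, reads of the pair cannot be told apart where strand was not used in counting. Nr4a1 (Nur77, an orphan nuclear receptor induced in the striatum by antipsychotics) was at 7.65, 6.60, 6.21 and 5.55 against 2.62 to 4.52 (median 3.27), a difference of 0.74 (SE 0.12, limma adjusted p = 0.0207). Fos itself did not pass as a gene, at 5.58, 5.30, 5.28 and 3.11 against 1.60 to 3.40 (median 2.45). Its RIS replicate 4 lay inside the SAL range, and its difference of 0.76 had an adjusted p of 0.0514 (limma). The Fos transcript ENSMUST00000021674 did not overlap, at 2.665 to 4.005 against 1.432 to 1.996. It was called against 8 SAL (limma adjusted p = 0.0315) and not against set I (limma adjusted p = 0.285). Nr4a2 was the 1 member with a lower mean, at 3.09 to 3.87 against 2.54 to 5.61 (difference -0.12, limma adjusted p = 0.715), and against set I its difference was -0.30 (limma unadjusted p = 0.0355, adjusted p = 0.713).

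A further 50 activity-induced genes gave 40 tested, 5 called higher against 8 SAL (0.326% of all genes were) and a median difference of 0.19. Against set I 0 of the 40 were called (limma), with 15 higher and 3 lower at an unadjusted p under 0.05, where 6.61% of all genes had one. The 5 were Arc, Rasd1, Arl4d, Pim3 and Csrnp1, and 0 to 6 of the list were called when 1 library was left out. Arc, whose messenger RNA moves to active synapses, was at 13.4, 10.6, 10.5 and 9.39 FPKM after RIS and at 5.12 to 7.50 (median 6.56) after SAL, a 1.70-fold rise (limma adjusted p = 0.0202). Npas4, a transcription factor induced by calcium entry, overlapped between the groups, at 1.48 to 2.29 after RIS and 1.35 to 2.72 after SAL. Rasd1, Dusp1 and Gadd45g stand in the glucocorticoid list too.

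Lists of signalling pathways moved little in the median, with 0.01 for the NF-kappaB list and 0.03 for the clock list. The calls of the CREB, NF-kappaB and clock lists stand beside 0.326% of all genes called higher against 8 SAL. Of 25 genes of CREB, its CRTC coactivators and cAMP signalling, 2 were called higher, Irs2 and Sik1, a kinase that is itself a CREB target and restrains CRTC, and the median difference was 0.04. Sik1 was at 3.10, 2.73, 2.56 and 3.07 FPKM after RIS against 1.36 to 2.24 (median 1.70). Of 7 tested genes of the NF-kappaB pathway only Nfkbia was called, and the 6 others differed by -0.11 to 0.11. Of 16 clock genes Bhlhe40, a repressor that also responds to activity, was called, at 8.43 to 11.3 after RIS and 5.96 to 8.68 after SAL, where the groups overlap. Of 11 Notch genes, 23 genes of cholesterol and fatty acid synthesis, 16 heat shock and cold-induced genes, 12 neuropeptide precursors and 12 microtubule-associated genes, 0 were called (limma), while 3, 1, 2, 4 and 1 had an unadjusted p under 0.05, as 13.1% of all genes had.

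The receptors that risperidone binds did not pass the test. Of 19 names, 12 were tested and 0 were called (limma), and the differences ran from -0.12 to 0.35. Adra2c and Htr1d, 2 of the 12, had an unadjusted p under 0.05, where 13.1% of all genes had. Drd2, its main dopamine target, was at 13.8 to 15.9 FPKM after RIS and 12 to 18.3 after SAL (difference 0.03, SE 0.09, limma adjusted p = 0.907). Htr2a was at 3.96 to 4.25 against 4.00 to 5.21 (difference -0.09, SE 0.07, adjusted p = 0.536). Htr2c, at 16.3 to 20.9 against 16.7 to 20.0, and Drd1, at 27.8 to 31.6 against 27.4 to 36.8, were the most abundant receptors, and both overlapped. The other tested receptors ranged from Htr1a at 0.665 to 1.26 after RIS to Adra2c at 5.12 to 5.64.

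Markers of the medium spiny neurons were likewise not called, with 0 of 5 indirect-pathway, 0 of 8 direct-pathway and 0 of 12 shared genes (limma). Of these, 0, 0 and 3 had an unadjusted p under 0.05, where 13.1% of all genes had. Rasd2 (Rhes, a striatal GTPase) had the lowest adjusted p of these, at 38.7 to 40.8 FPKM after RIS, above every SAL library (21.1 to 34.8), with a difference of 0.50 (limma adjusted p = 0.105). The summed FPKM of the shared markers was 818 to 950 in RIS, 750 to 898 in set I and 708 to 941 in set II. In tissue, fewer cells of a type and less RNA per cell cannot be told apart.

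Markers of other cell types were described in the same way. No astrocyte, oligodendrocyte, microglial, cortical, blood, choroid plexus or cholinergic marker was called (limma), of 46 tested. Of these 46, 5 had an unadjusted p under 0.05, where 13.1% of all genes had. The summed FPKM of 10 astrocyte genes was 389 to 415 in RIS, 376 to 398 in set I and 324 to 362 in set II. The 9 cortical markers summed to 52.3 to 79.8 in RIS, 63.3 to 85.4 in set I and 33.5 to 58.6 in set II. Of 10 tested endothelial and mural genes 1 was called lower, where 0.126% of all genes were. This was Cldn5, the tight-junction protein of brain endothelium. It was at 4.52, 3.71, 4.03 and 4.22 after RIS and at 4.76 to 6.93 (median 5.99) after SAL, with a difference of -0.45 (SE 0.09, limma adjusted p = 0.0461). The summed level of the 12 genes of that list was 60.2 to 65.5 in RIS, 59.9 to 67.5 in set I and 57.4 to 64.8 in set II, and 8 of the 10 tested had a lower mean after RIS (45.5% of all genes had). Cldn5 kept its call in 1 of 12 fits that left out 1 library, and a part of endothelial content in its fall was not tested. Slc2a1, the glucose transporter of the same cells, was higher in all 4 RIS libraries than in any SAL library, at 14.2 to 16.8 against 8.11 to 13.3 (limma adjusted p = 0.053).

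Among the 19 genes called lower, Clk1, a kinase that phosphorylates SR splicing factors, was at 20.4, 17.4, 20.8 and 18.3 FPKM after RIS and at 25.0 to 28.8 (median 26) after SAL. The groups did not overlap, and the difference was -0.45 (SE 0.07, limma adjusted p = 0.0124). None of the 16 other SR, Clk and Tra2 genes was called (limma), and 3 of them had an unadjusted p under 0.05, where 13.1% of all genes had. Gpr34, a receptor of microglia, was at 0.818 to 1.12 after RIS and 1.36 to 1.97 after SAL (limma adjusted p = 0.0447). The lowest p belonged to Gm43230, a gene of unsettled type (TEC in GENCODE), at 0.447 to 0.475 after RIS and 1.01 to 1.57 after SAL (adjusted p = 0.00129, limma). Its mean was 0.463 after RIS and 1.28 after SAL, so Gm43230 passed the filter only through SAL. Clk1 and Cldn5 stand in lists, and Gpr34 and Gm43230 were chosen after their values were seen.

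The largest falls among the called genes belong to 7 short predicted genes of 79 to 110 bases, annotated as miRNA in GENCODE (Gm24047, Gm27509, Gm22402, Gm24715, Gm24048, Gm22369 and Gm23766). Their differences were -1.34 to -1.27 from 8 SAL (limma adjusted p 0.0358 to 0.0405) and -0.98 to -0.91 from set I (adjusted p 0.207 to 0.22). Each kept its call in 3 or 4 of 12 fits that left out 1 library. Their sequences align to each other over 51 to 98 bases at 85.7 to 100% identity (median 93.9%), so they may share reads and may be fewer than 7 signals. Gm23766 was at 19.1, 14.1, 13.7 and 14.8 FPKM after RIS and at 24.9 to 64.8 (median 41.9) after SAL. The mean of these genes was 23.6 to 33.0 in set I and 38.3 to 54.6 in set II, so the saline sets stood apart in the mean as well.

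Among the other rises called against 8 SAL, 5 are given here that were chosen after their values were seen. Ucp2, a mitochondrial carrier, was at 6.08, 6.25, 9.07 and 9.71 FPKM after RIS and at 2.38 to 4.68 (median 3.30) after SAL (difference 0.99, SE 0.17, limma adjusted p = 0.0207). Olig2, the transcription factor of the oligodendrocyte lineage, was at 3.83, 4.84, 3.85 and 3.42 against 2.12 to 2.91 (median 2.44, limma adjusted p = 0.0155). Lfng, a glycosyltransferase that modifies Notch receptors, was at 6.12, 5.64, 6.0 and 6.29 against 3.15 to 4.50 (median 3.76, limma adjusted p = 0.0124). In all 3 the RIS libraries lay above all SAL libraries. Camk1g and Slc25a25 also passed, and kept their calls in only 2 of 12 fits that left out 1 library.

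At the level of transcripts, 21 of 69339 passed against 8 SAL (limma, 0.0303%), 18 higher (0.026%) and 3 lower (0.00433%). Without RIS replicate 2 or 3 the count was 11, without set I replicate 1 or 3 it was 13, and without set II replicates 1 to 4 it was 10, 9, 12 and 10. None passed against set I (limma), where 3894 had an unadjusted p under 0.05 (5.62%), and none passed with the replicate block. Of the 21, 10 belong to genes that were not called as a gene, among them Fos, Trim2 and Kat7.

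The rise of Sgk1 was unequal over its transcripts, of which 11 of 13 were tested. ENSMUST00000020145 was at 8.63, 13.9, 13.9 and 11.5 FPKM after RIS and at 0.929 to 2.96 (median 1.73) after SAL, a 6.75-fold higher mean. Its difference was 2.25 (SE 0.20, limma adjusted p = 0.00492) from 8 SAL and 2.51 from set I (adjusted p = 0.0651, and 0.858 with the replicate block). ENSMUST00000120509, which begins at the far upstream start, was at 4.6, 5.97, 4.02 and 4.33 after RIS and at 4.00 to 6.11 (median 5.12) after SAL. Its difference was -0.09 (SE 0.11, adjusted p = 0.838, limma). ENSMUST00000092673, which begins at 21993890 and whose window holds the GRE letters shown above, was at 0.526, 0.866, 0.547 and 1.54 after RIS and at 0 to 1.09 (median 0.157) after SAL, so the groups overlapped (difference 0.54, SE 0.22, limma adjusted p = 0.606). ENSMUST00000126560 also did not overlap, at 2.12 to 4.15 after RIS and 0.361 to 1.93 after SAL (difference 1.03, limma adjusted p = 0.268). ENSMUST00000141218, ENSMUST00000135195 and ENSMUST00000124350 overlapped, with differences of 0.9475, 0.9008 and 0.9269, and were not called (limma adjusted p 0.329 to 0.572). ENSMUST00000143094 and ENSMUST00000164659 had a lower mean after RIS, like ENSMUST00000120509. Transcripts of Sgk1 share exons, and Cufflinks divides reads among them by a model.

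Txnip, Klf15 and Fosl2 also had several transcripts in the files, and the other 4 of the 8 genes had 1. All 6 transcripts of Txnip had a higher mean after RIS, with differences of 0.33 to 1.11, but each overlapped between the groups and none was called (limma adjusted p 0.329 to 0.751). In Klf15, 1 of 5 transcripts did not overlap, where 1.14% of all transcripts tested did not, and it was not called. ENSMUST00000203607 was at 3.8, 3.43, 4.12 and 5.22 FPKM after RIS and up to 2.67 (median 2.23) after SAL (limma adjusted p = 0.537). In Fosl2, 1 of 3 was called, ENSMUST00000031017, at 4.3, 4.45, 3.45 and 3.98 against 1.73 to 2.24 (median 1.98, limma adjusted p = 0.0086). The rises of Txnip and Klf15 passed only as sums over their transcripts.

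Homer1 gives a short activity-induced form and longer scaffold forms of the synapse. ENSMUST00000102752, which ends within the gene at 93360462, was at 8.81, 9.82, 8.83 and 7.57 FPKM after RIS and at 5.02 to 6.51 (median 5.99) after SAL. It did not overlap between the groups, where 1.14% of all transcripts tested did not, and its difference of 0.50 had an adjusted p of 0.115 (limma). Among other forms that end within the gene, ENSMUST00000109493, ENSMUST00000109492 and ENSMUST00000109494 overlapped between the groups. Their differences were 0.18, 0.07 and 0.52 (limma adjusted p = 0.682, 0.943 and 0.521). The longest-reaching form, ENSMUST00000079086, was at 5.27 to 7.12 after RIS and at 5.43 to 7.75 after SAL (difference -0.01). Summed over transcripts, Homer1 differed by 0.14 (adjusted p = 0.383, limma).

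Dclk1, a kinase of the doublecortin family and the gene the study was about, has 15 transcripts in the files, all tested, and 0 were called (limma). In 2 of them the groups did not overlap, where 1.14% of all transcripts tested did not. Carp (ENSMUST00000199585), the short form without doublecortin and kinase domains, was at 6.47, 8.95, 8.28 and 7.26 FPKM after RIS and at 1.00 to 4.75 (median 4.36) after SAL. Its difference was 0.96 (SE 0.26, adjusted p = 0.406, limma). The intron-retained form (ENSMUST00000198757) was at 6.42, 8.78, 6.21 and 8.21 against 4.44 to 5.89 (median 5.44), a difference of 0.41 (SE 0.11, adjusted p = 0.359, limma). The Cpg16 forms, which carry the kinase domain, were the most abundant and overlapped between the groups. ENSMUST00000198437 was at 30.7 to 33.4 against 28.9 to 34.3, and ENSMUST00000070418 at 13.0 to 19.4 against 12.8 to 19.0.

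**Figure D4:**
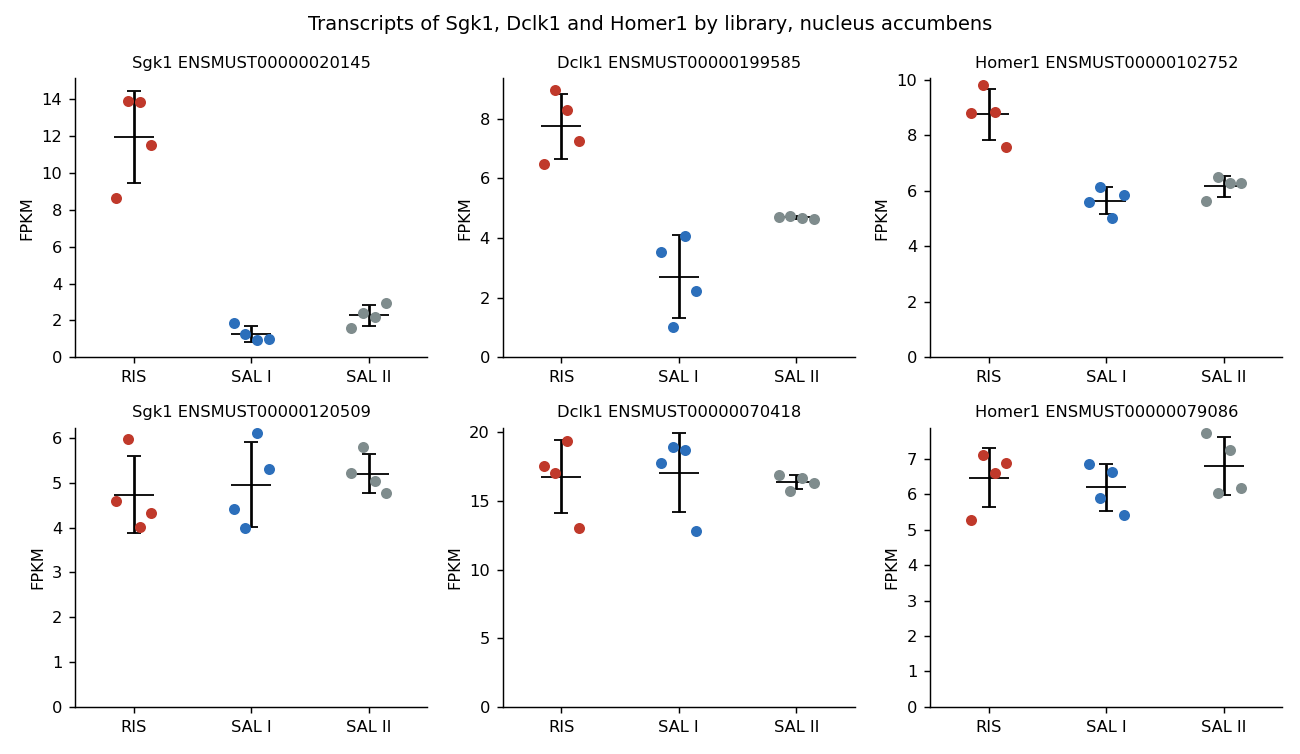
FPKM (y axis) of a pair of transcripts of Sgk1, Dclk1 and Homer1, in columns, in each risperidone (RIS), saline set I (SAL I) and saline set II (SAL II) library, with the mean and SD in black. In the upper row the 4 risperidone points lie above all 8 saline points, and in the lower row the groups overlap.

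Trim2, a ubiquitin ligase of neurons, and Kat7, a histone acetyltransferase, each had 1 transcript called lower without a call for the gene. Trim2 ENSMUST00000107695 was at 2.28, 2.02, 0.771 and 2.5 FPKM after RIS and at 4.63 to 7.85 (median 5.39) after SAL (limma adjusted p = 0.043). Kat7 ENSMUST00000092766 was at 1.15, 0.830, 0.394 and 0.639 against 1.89 to 4.18 (median 2.58, limma adjusted p = 0.043). Both were chosen after their values were seen.

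A direct comparison with HAL, a typical antipsychotic of the same sample set, asked where the drugs differ at these doses. Of 15053 genes only Arc passed (limma, 0.00664%), at 23.4 to 28.2 FPKM after HAL and 9.39 to 13.4 after RIS, a mean 2.33-fold higher after HAL (difference of RIS from HAL -1.16, SE 0.11, adjusted p = 0.0357). With the replicate block 0 genes passed (limma), and leaving out any 1 library other than RIS replicate 1 also left 0. In all, 913 genes had an unadjusted p under 0.05 (6.07%).

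Immediate early genes were lower after RIS than after HAL in the mean. Of 14 Fos, Jun, Egr and Nr4a genes 13 had a lower mean after RIS, and in 12 of them all 4 RIS libraries lay under all 4 HAL libraries, against 2.03% of all genes tested. Over the 3 activity lists together, 48 of 54 tested genes were lower (51.1% of all genes were) and the median difference was -0.30, against 0.00 for all genes. Nr4a1 was at 11.7 to 13.5 FPKM after HAL (difference -0.86, limma adjusted p = 0.0722), Junb at 17.6 to 21.1 (difference -0.85, adjusted p = 0.134) and Fos at 9.51 to 11.6 (difference -1.01, adjusted p = 0.223). Each lay wholly above the RIS libraries.

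Of the 26 tested genes of the glucocorticoid list 17 were higher after RIS than after HAL, the median difference was 0.11, and in 4 all RIS libraries lay above all HAL libraries, against 1.51% of all genes. In 2 of the 26, Dusp1 and Nr3c1, all RIS libraries lay under all HAL libraries, against 2.03% of all genes. Txnip was at 4.19 to 9.65 after HAL, and its highest HAL library just reached under the lowest RIS library (difference 0.65, limma adjusted p = 0.789). Sgk1 was at 24.6 to 37.6 after HAL, which overlaps RIS (difference 0.31, adjusted p = 0.869, limma). No difference of this list passed the test over all genes. The cortical markers also differed between RIS and HAL, with a median difference of -0.33 over 8 tested genes. Their summed levels were 76.6 to 94.7 after HAL and 52.3 to 79.8 after RIS. Between saline set I and set II, without a drug, their median difference was 0.33. The part of these markers in the differences between the drugs was not tested.

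**Figure D5:**
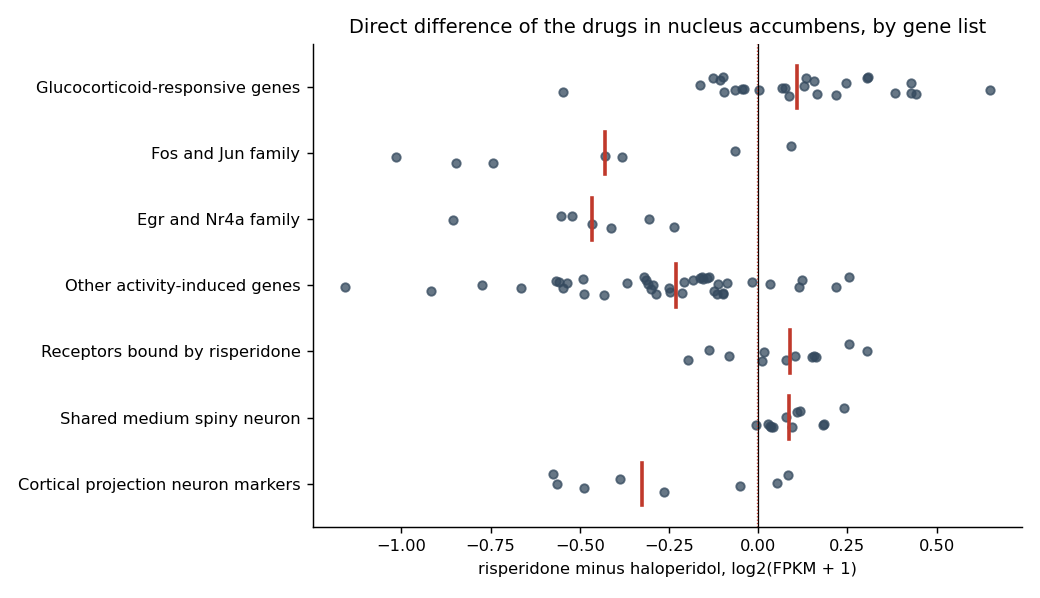
Difference of each gene between risperidone and haloperidol in NAc on the log2(FPKM + 1) scale (x axis), by gene list (rows), with the list's median as a red bar and the median of all genes as a dotted line. The Fos and Jun, Egr and Nr4a and other activity lists have medians of -0.43, -0.47 and -0.23, the cortical markers -0.33, and the glucocorticoid list 0.11.

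The response in the NAc was set beside that in the prefrontal cortex (PFCx) of RIS and SAL mice, with 4 RIS and 8 SAL libraries there. Those PFCx libraries, of both saline sets, list 109321 to 110800 transcripts above 0. In the NAc only saline set II was near that level, so the 8 SAL libraries there hold both levels. A part of this in the contrast of the tissues was not tested. Of 15582 genes 0 differed between the tissues in their difference from saline (limma), and 827 had an unadjusted p under 0.05 (5.31%). Txnip was at 9.66 ± 3.26 (SD, n = 4) after RIS and 3.94 ± 1.28 (SD, n = 8) after SAL in the PFCx, a difference of 1.10 (limma adjusted p = 0.0473) close to the 1.34 of the NAc. Sgk1 was at 18.0 ± 2.09 (SD, n = 4) against 13.4 ± 1.79 (SD, n = 8) there, a difference of 0.41, which is 0.69 smaller in the mean than in the NAc (SE 0.16, adjusted p = 0.651, limma). Fosl2 differed by 0.23 there and Fosb by 0.58, which is 0.43 and 0.53 less than in the NAc (adjusted p = 0.651 and 0.698, limma). The medians of the glucocorticoid list were 0.45 in the PFCx and 0.49 in the NAc, and those of the Fos and Jun family 0.41 and 0.66.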

How the data were processed

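Total RNA of dissected tissue was depleted of ribosomal RNA and sequenced on Ion PI chips. Per the labels and the study's methods, the authors aligned reads with TopHat2 2.0.1 and then Tmap, and estimated FPKM per Ensembl transcript on mm10 with Cufflinks 2.2.1. The deposited FPKM and coverage signal were used as given, and depth is the median of coverage over FPKM for transcripts of at least 2000 bases and 5 FPKM. FPKM holds no counts, so no count model was run, and summed FPKM of 46686 gene names is not weighted by length.

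Genes with a mean FPKM of at least 1 and transcripts with at least 0.1 over the 12 libraries were tested on log2(FPKM + 1) with limma 3.58.1 in R 4.3.3, with Benjamini-Hochberg adjustment over all features and an adjusted p under 0.05 as a call. This scale understates changes of low genes. Single values had two-sided exact permutation tests (scipy 1.17.1), whose p is fixed where groups do not overlap and is not given. The steps were tested on simulated data. The members and lists were chosen with earlier results of these data known. The rule for named genes, fixed with the design, took genes called in both comparisons with RIS outside the saline range, the measured receptors, and transcripts of Dclk1, Sgk1, Homer1 and of the genes so named. It gave 8 genes, and no transcript called in both comparisons without a call for its gene. Every other gene or transcript named, list members called only against 8 SAL included, was chosen after its values were seen.

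No libraries were identical. Whole libraries of RIS and saline set I correlated at 0.9594 to 0.9805. The pairing of numbers was read from deviations from the group means, not from whole libraries. These deviations of same-numbered RIS and saline set I libraries had correlations of 0.126 to 0.358 (mean 0.208), and different-numbered ones -0.33 to 0.295 (mean -0.069). RIS replicate 2 correlated more with set I replicate 3 (0.295) than with its own number (0.126). RIS replicate 4 did so slightly with set I replicate 1 (0.144 against 0.141). For RIS and HAL the same numbers gave 0.176 to 0.315 and different ones -0.33 to 0.16. For RIS and set II these were -0.08 to 0.26 and -0.31 to 0.29. Deviations from a group mean sum to 0, so a positive mean for the same numbers goes with a negative mean for different ones. The latter is no separate support for pairing. The numbers were taken as pairs for set I and HAL, which the labels do not state. Failed estimates were listed for 25 transcript values in the 12 libraries, of Mbp, Epha4 and Ryr2, and for none of the genes called. Exons of 18 of the 68 called genes overlap another gene, of 15 on the other strand. Alternatives were the pseudocount, filter, scaling, trend, ordinary model, block, control set and leaving out libraries.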

Additional observations from a re-analysis of the deposited data

Results flagged for a closer look

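Of 105 genes and transcripts and 210 groups of libraries looked at, 12 groups held a library far from the others by Dixon's ratio (gap over range, on FPKM), and chance flags about 1 in 20 groups. Of these 12, 4 were RIS replicate 2. Among RIS libraries, Pmepa1 had a ratio of 0.948 with replicate 2 highest (10.9 against a next value of 8.91), Nr4a3 one of 0.876 (replicate 2 highest), Htr1b one of 0.848 (replicate 2 highest), and Gm42888 one of 0.843 (replicate 2 lowest). Smim3 had a ratio of 0.948 (replicate 3 highest), Fosl2 one of 0.874 and Gm22402 one of 0.845 (replicate 1 highest in both), and Ddit4 one of 0.832 (replicate 4 lowest). The Dclk1 transcript ENSMUST00000199702 had a ratio of 0.866 in RIS, with replicate 4 at 16.8 FPKM against a next value of 10.7, and one of 0.683 in SAL, with set I replicate 4 at 18.3 against 10.4. In SAL, Nfkbia had a ratio of 0.634 (set I replicate 4 highest, at 3.27 against 2.42) and Csrnp1 one of 0.588 (set I replicate 3 lowest). These values did not remove the separation of RIS from SAL in Ddit4, Fosl2, Nfkbia, Nr4a3, Pmepa1 and Csrnp1, where the groups did not overlap.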

How the results depend on the processing

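Against 8 SAL, the 68 calls became 17 with the replicate block, 317 in a fit on 32 NAc libraries and 2288 when only set II served as control, and 54 to 76 under the other settings. Leaving out 1 library gave 11 to 85, with 25, 11, 15 and 30 without RIS replicates 1 to 4. The numbers were not taken as pairs for RIS and set II. Against set I, the 8 calls became 0 with a minimum mean FPKM of 0.1 (where 27721 genes were tested), 3 with scaling to the 75th percentile, 0 with the replicate block, 91 in the fit on 32 libraries and 18 with set II in the spread, and 0 to 3 with 1 library left out. For transcripts, the 21 calls became 32 without a filter, 14 after scaling, 0 with the block, 133 in the fit on 32 libraries, 1227 with set II only and 9 to 17 with 1 library left out. The 0 transcript calls against set I became 34 with a pseudocount of 0.1, 18 without a filter, 1 with a minimum of 1 FPKM or with a trend, 5 with an ordinary linear model, 49 on 32 libraries, 6 with set II in the spread and 0 to 5 with 1 library left out (5 without RIS replicate 1 and 2 without RIS replicate 4). Against HAL, 1 call became 0 with a pseudocount of 0.1, scaling, an ordinary model or the block, 2 with a trend and 17 on 32 libraries (1 higher and 16 lower), and 0 to 1 with 1 library left out. The contrast of tissues gave 1 call without a filter and 0 otherwise. No called gene or transcript among those named reversed its sign. Causes were not tested. Depth of 2.03 to 3.26 gigabases limits transcripts near 0.1 FPKM.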
